A study of Mus musculus with 56 samples.

Results

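Genes that mark T cells and natural killer (NK) cells were followed in mouse liver after excision of miR-122, the most abundant microRNA of hepatocytes. They were taken by symbol from the RNA sequencing (RNA-seq) table, and 10 of its 21888 symbols were members: Cd3d, Cd3e, Cd3g, Cd4, Cd8a, Cd8b1, Nkg7, Gzma, Gzmb and Ltb. The question was when after injection these genes were highest, and in particular whether day 21 stood above later days. All livers came from mice labelled as 129Sv/J. The floxed mice carried LoxP sites on either side of miR-122. Those at day 0 were uninjected (3 mice), and the others had received an adeno-associated virus of serotype 8 that expressed Cre, by the tail vein, 21 days (3 mice), 45 days (3 mice), 100 days (1 mouse) or 200 days (1 mouse) before harvest. The mice of days 100 and 200 formed 1 late group. The remaining 3 mice were uninjected germline miR-122 knockouts. Cre was driven by the Ef1a promoter, which is active in many cell types, and no mice injected with a vector lacking Cre were analysed here, so injection, vector and loss of miR-122 cannot be told apart in the floxed series. No uninjected floxed mice of later days were analysed either, so age at harvest cannot be told apart from these. The floxed mice were adult when injected, and sex and exact ages were not given in the sources used here.

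T cells recognise antigen through a receptor whose signal is passed on by the CD3 chains. The coreceptor CD4 marks helper T cells and CD8, a pair of CD8a and CD8b1 chains or of CD8a chains alone, marks cytotoxic T cells. Cytotoxic T cells and NK cells kill through granules that hold perforin and granzymes, and NKG7 is a protein of those granules. Lymphotoxin beta, the product of Ltb, is made by lymphocytes and signals through the lymphotoxin beta receptor to the non-canonical NF-kB pathway. The liver normally holds resident T and NK cells beside its macrophages and hepatocytes.

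Levels are FPKM, fragments scaled by transcript length and by library size, so they can be compared between genes. All 10 genes passed a filter of a mean of at least 0.1 FPKM over the 14 libraries, and their means over these libraries ran from 1.09 FPKM (Cd4) to 8.09 FPKM (Nkg7). Differences are log2 fold changes of FPKM + 0.1 with their standard errors (SE), from 1 limma fit to 14104 genes, and a gene was called at a Benjamini-Hochberg adjusted p below 0.05. This scale understates the change of low genes. Depth was estimated from the steps of the FPKM values at 23700000 to 55500000 fragments per library, and was lowest in the knockouts. The lowest member values rested on few fragments, an estimated 8 for Cd8b1 and 10 for Cd8a in day 0 mouse B. In the small RNA libraries of the floxed livers, miR-122 took 59.2% to 73.3% of microRNA reads in day 0 mice, and 8.22% to 13.2% on day 21. Its share was 0.383% to 1.23% on day 45, and 4.46% and 19.1% in the mice of days 100 and 200. Knockout mouse C stood apart from the other knockouts, with correlations across genes of 0.903 and 0.916 against 0.984 between mice A and B. Its values are therefore given on their own below, and the knockout differences of the 10 genes also without it.

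At day 21, 8 of the 10 genes were called higher than at day 0 and none lower, where 8.47% of all genes were called higher. The median difference of the 10 genes was 2.54 on the log2 scale, against 0.12 for all genes tested. All 3 mice of day 21 lay above all 3 mice of day 0 for 10 of 10 genes, a separation that 27.6% of all genes showed. The CD8 chains differed most, at 3.96 for Cd8a and 3.35 for Cd8b1. Cd4 and Ltb, at 1.55 (adjusted p = 0.0551) and 1.41 (adjusted p = 0.0854), were not called. Cd4 was called with equal sums of FPKM (adjusted p = 0.0484), and Ltb with the groups compared fitted alone (adjusted p = 0.0283). In whole liver RNA, more cells of a type and more RNA per cell cannot be told apart. Within day 21, mouse C was the highest for 10 of the 10 genes. Within day 0, mouse B was the lowest for 9 genes.

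**Figure D1:**
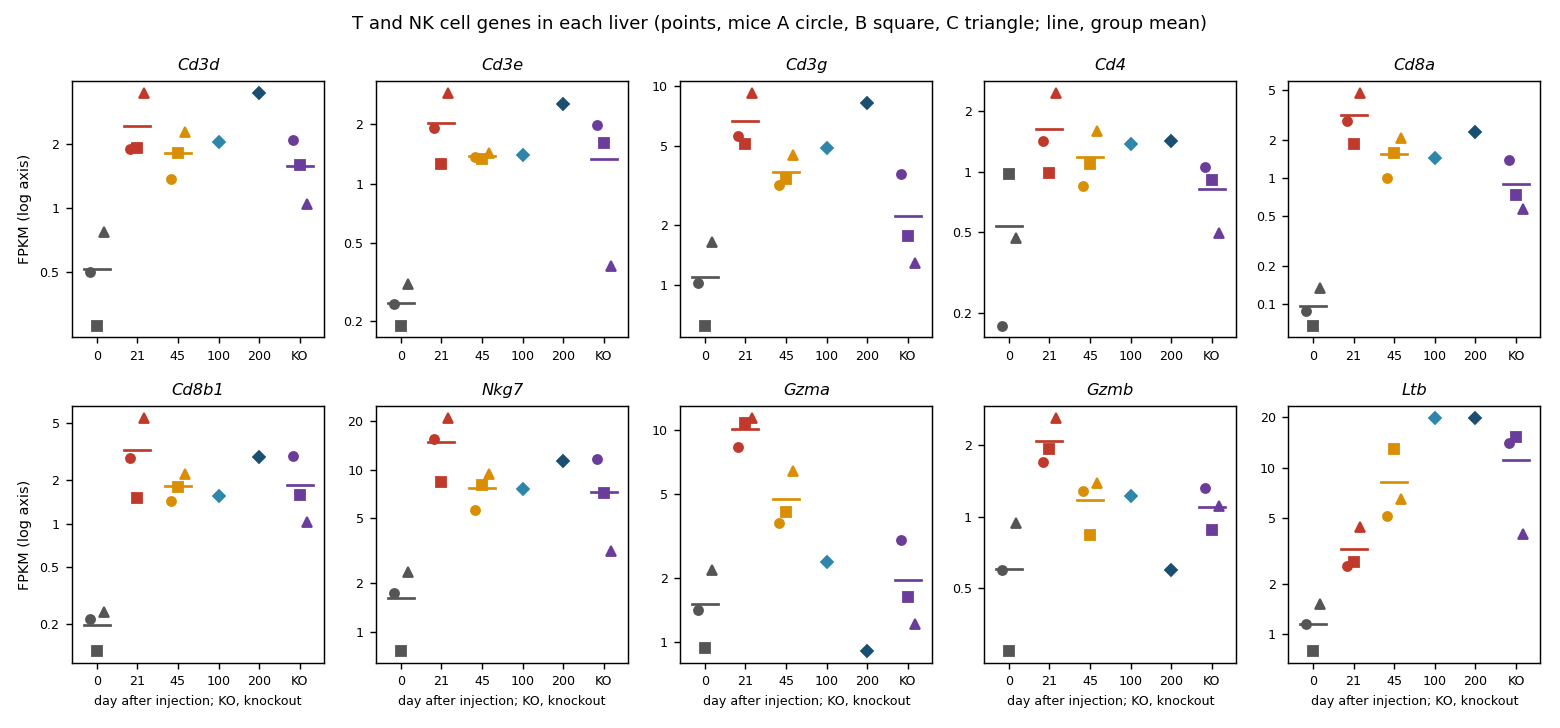
FPKM (log axis) of each of the 10 genes in each liver, by day after injection and in the knockouts (KO), with circles, squares and triangles for mice A, B and C, diamonds for the single mice of days 100 and 200, and lines at group means. For all 10 genes the 3 day 21 points lie above the 3 day 0 points, Gzma falls back to 0.902 FPKM at day 200, and Ltb climbs to 19.7 FPKM there.

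Cd3d, Cd3e and Cd3g code for the chains that carry the signal of the T cell receptor. The 3 genes lie together on chromosome 9 (mm9), where Cd3g (minus strand, 44777655 to 44788514) and Cd3d (plus strand, 44789869 to 44795135) start away from each other across 1354 bases, and Cd3e (minus strand, 44806826 to 44817673) follows 11690 bases further. Cd3e was 0.243, 0.189 and 0.307 FPKM in day 0 mice A, B and C, and 1.92, 1.25 and 2.90 FPKM in those of day 21. It was 1.36, 1.34 and 1.43 FPKM at day 45, 1.40 FPKM at day 100 and 2.54 FPKM at day 200. The groups of day 0 and day 21 did not overlap, the day 45 mice were close together within the span of day 21, and the day 200 mouse was above them. Cd3e rose by 2.55 ± 0.48 (SE) at day 21 (adjusted p = 0.00720), 2.10 ± 0.48 at day 45 (adjusted p = 0.00528) and 2.53 ± 0.53 in the late mice (adjusted p = 0.00263).

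Cd3g was the most abundant of the CD3 chains. It measured 1.03, 0.629 and 1.66 FPKM at day 0, 5.62, 5.08 and 9.21 FPKM at day 21, 3.20, 3.39 and 4.50 FPKM at day 45, 4.84 FPKM at day 100 and 8.20 FPKM at day 200. The 3 mice of day 45 were below the 3 of day 21 without overlap, yet the day 200 mouse was again within the span of day 21. Cd3g rose by 2.53 ± 0.40 at day 21 (adjusted p = 0.00383), and the difference between day 45 and day 21, -0.79 ± 0.40, was not called (adjusted p = 0.318). Cd3d went from 0.516 ± 0.248 FPKM (SD, n = 3) at day 0 to 2.44 ± 0.918 at day 21 and 1.83 ± 0.468 at day 45, with 2.05 and 3.52 FPKM in the mice of days 100 and 200. Its day 45 mice overlapped with those of day 21, and the day 200 mouse was above them all. Its late mean of 2.78 FPKM was its highest, so among the CD3 chains Cd3d did not have its highest group mean at day 21.

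Both CD8 chains were called at day 21 and Cd4 was not, and the difference between them was not tested. Cd8b1 (mm9 chromosome 6, plus strand, 71272806 to 71287445) and Cd8a (plus strand, 71323421 to 71329165) lie in tandem 35975 bases apart, and Cd4 is elsewhere on chromosome 6 (minus strand, 124814711 to 124838227). Cd8a was 0.087, 0.067 and 0.134 FPKM at day 0, the lowest of all members, and 2.81, 1.85 and 4.72 FPKM at day 21. It then measured 0.990, 1.57 and 2.06 FPKM at day 45, 1.44 FPKM at day 100 and 2.29 FPKM at day 200. Every injected mouse was above every day 0 mouse, and the day 21 and day 45 groups overlapped. Cd8a rose by 3.96 ± 0.39 at day 21 (adjusted p = 0.000711), a 32.6-fold difference of mean FPKM, and by 3.02 ± 0.39 at day 45 and 3.31 ± 0.44 in the late mice. Cd8b1 went from 0.218, 0.130 and 0.242 FPKM at day 0 to 2.86, 1.505 and 5.42 FPKM at day 21 and rose by 3.35 ± 0.45 (adjusted p = 0.00232).

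Cd4 was 0.173, 0.971 and 0.469 FPKM at day 0 and 1.42, 0.983 and 2.45 FPKM at day 21. The day 0 mouse B, lowest for 9 other members, was the highest for Cd4, and all but reached the lowest mouse of day 21. With that mouse left out, the Cd4 difference at day 21 was 2.03 (adjusted p = 0.0338). CD4 is also made by some macrophages and dendritic cells, and their part in the Cd4 value was not tested. In the late mice Cd4 measured 1.37 and 1.41 FPKM and was called (1.43 ± 0.52, adjusted p = 0.0464), a call lost when day 0 mouse A or C or either late mouse was left out (adjusted p from 0.0824 to 0.172). It was also lost with a pseudocount of 1 (adjusted p = 0.0561), no filter (adjusted p = 0.0627), median centring (adjusted p = 0.203) or the groups compared fitted alone (adjusted p = 0.0848).

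The ratio of Cd8a to Cd4 varied little within day 21. It was 0.503, 0.0690 and 0.286 in the day 0 mice, 1.98, 1.88 and 1.93 in those of day 21, and 1.16, 1.45 and 1.29 in those of day 45. The 3 day 21 mice lay within a narrow span although their Cd8a levels differed widely, and above the 11 other libraries, of which day 200 came closest at 1.63. The ratio was 1.06 at day 100 and 1.32, 0.799 and 1.14 in the knockouts. These ratios were chosen after the values were seen and are given as a description, without a test.

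**Figure D2:**
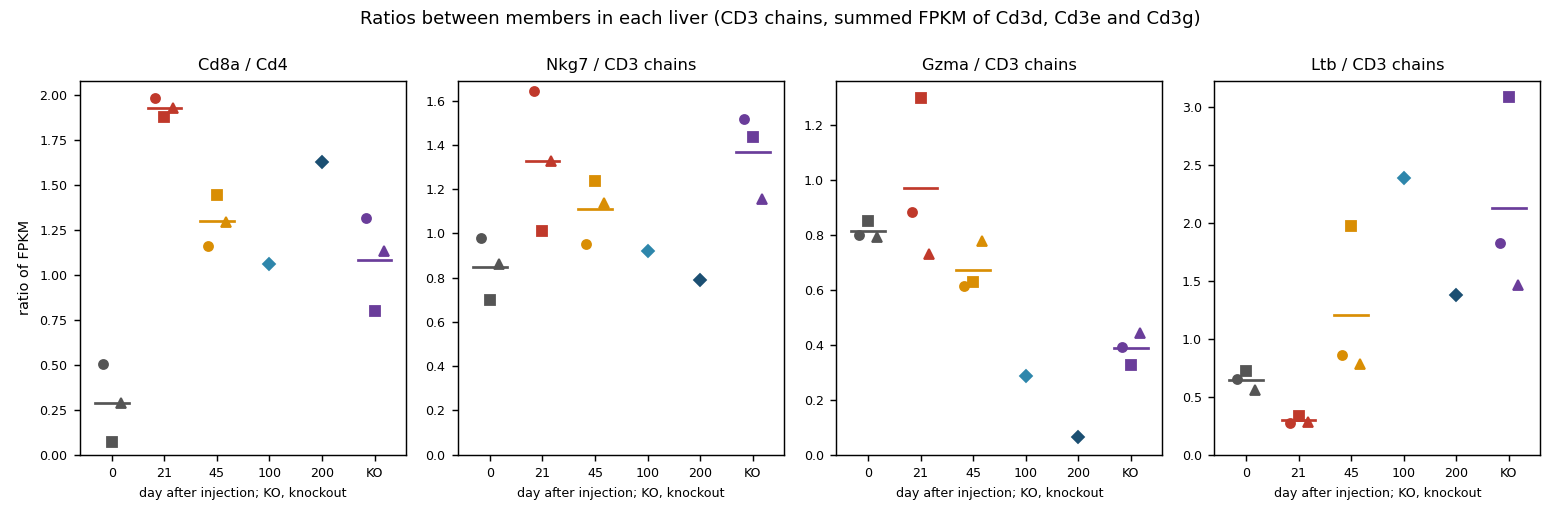
Ratios of FPKM in each liver, with Cd8a over Cd4 and with Nkg7, Gzma and Ltb over the summed FPKM of the 3 CD3 chains; symbols as in the plot of single genes, and axes start at 0. Cd8a over Cd4 is 1.88 to 1.98 at day 21, Gzma over CD3 falls to 0.0633 at day 200, and Ltb over CD3 is lowest at day 21.

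All 3 granule genes rose at day 21, and Gzma was lower again in the late mice. Nkg7 (mm9 chromosome 7, plus strand, 50692508 to 50693616) was the most abundant member at day 21, with 15.5, 8.35 and 20.7 FPKM against 1.73, 0.766 and 2.36 FPKM at day 0. It measured 5.63, 8.08 and 9.36 FPKM at day 45, 7.61 FPKM at day 100 and 11.2 FPKM at day 200. Its injected mice all lay above day 0, and its day 45 mice overlapped with those of day 21. Nkg7 rose by 3.15 ± 0.49 at day 21 (adjusted p = 0.00365), 2.28 ± 0.49 at day 45 and 2.57 ± 0.55 in the late mice.

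Gzma, which codes for granzyme A, a granule protease of T and NK cells, lies on chromosome 13 (mm9, minus strand, 113884035 to 113891189). It was 1.41, 0.934 and 2.17 FPKM at day 0 and 8.33, 10.7 and 11.4 FPKM at day 21, then 3.63, 4.10 and 6.41 FPKM at day 45, 2.39 FPKM at day 100 and 0.902 FPKM at day 200. The 3 day 45 mice were all below the 3 day 21 mice, and the day 200 mouse was below every day 0 mouse. Gzma rose by 2.73 ± 0.41 at day 21 (adjusted p = 0.00338) and 1.61 ± 0.41 at day 45 (adjusted p = 0.00987), and the late mice differed from day 0 by 0.05 ± 0.46 (adjusted p = 0.949). Against day 21 the late mice were lower by -2.69 ± 0.46 (adjusted p = 0.00366), a call that held with any 1 library left out.

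Gzmb, for granzyme B, the protease that cleaves caspases in target cells, lies on chromosome 14 (mm9, minus strand, 56877695 to 56881097). It was 0.595, 0.272 and 0.940 FPKM at day 0, 1.70, 1.92 and 2.60 FPKM at day 21, 1.28, 0.839 and 1.39 FPKM at day 45, 1.22 FPKM at day 100 and 0.593 FPKM at day 200. Its day 21 mice were above those of both day 0 and day 45, which overlapped with each other. It rose by 1.73 ± 0.37 at day 21 (adjusted p = 0.0135), a call lost without day 0 mouse B (adjusted p = 0.0588) or day 21 mouse C (adjusted p = 0.0698). At day 45 and in the late mice it differed from day 0 by 0.95 ± 0.37 (adjusted p = 0.0722) and 0.57 ± 0.42 (adjusted p = 0.321).

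The promoters of the granule genes are shown because the 3 genes share a role and were called together at day 21. They were read from RefSeq (GRCm38.p6), which held 8 of the 10 members (Cd4 and Cd8b1 had no entry), as 250 bases before to 50 after the start of transcription. The motifs searched, 5 in all, were chosen after the member promoters were seen, were read on both strands without regard to overlap, and were TGTGGT (RUNX factors), GGGNNTTTC (NF-kB), CAGGTG (an E-box), AGGTGTGA (T-box factors) and TGANTCA (AP-1). Capitals mark every match.

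Nkg7 (chr7:43436888-43437187, plus strand): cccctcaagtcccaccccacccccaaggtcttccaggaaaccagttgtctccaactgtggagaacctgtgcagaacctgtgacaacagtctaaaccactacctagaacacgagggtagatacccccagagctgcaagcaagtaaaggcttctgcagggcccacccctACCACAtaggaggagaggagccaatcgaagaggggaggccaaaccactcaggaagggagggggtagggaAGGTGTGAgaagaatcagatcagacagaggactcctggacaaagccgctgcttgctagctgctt
Gzma (chr13:113100932-113101231, minus strand): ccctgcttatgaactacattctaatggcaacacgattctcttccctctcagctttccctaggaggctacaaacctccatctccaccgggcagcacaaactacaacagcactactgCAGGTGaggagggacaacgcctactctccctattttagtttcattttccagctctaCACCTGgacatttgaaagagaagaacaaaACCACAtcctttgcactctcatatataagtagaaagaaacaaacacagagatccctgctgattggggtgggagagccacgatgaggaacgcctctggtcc
Gzmb (chr14:56262285-56262584, minus strand): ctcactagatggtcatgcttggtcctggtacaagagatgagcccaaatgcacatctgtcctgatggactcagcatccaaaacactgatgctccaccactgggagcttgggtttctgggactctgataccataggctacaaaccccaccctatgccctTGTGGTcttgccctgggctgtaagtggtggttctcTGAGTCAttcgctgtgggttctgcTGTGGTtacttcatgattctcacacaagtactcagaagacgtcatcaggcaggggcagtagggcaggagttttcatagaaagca

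TGTGGT or its reverse was in all 3 granule promoters and in none of the 5 other member promoters found, where 16.8% of all 32851 promoters held it. The T-box letters were in Nkg7 alone among these 8, against 1.28% of all promoters, and the AP-1 letters in Gzmb alone, against 7.81%. The E-box letters were in Gzma, Cd3d, Cd3e, Cd3g and Ltb, against 20.2% of all promoters. A match describes letters in a window and no binding was measured.

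Ltb was highest late. It lies on chromosome 17 (mm9, plus strand, 35331452 to 35333250). Its level was 1.16, 0.796 and 1.52 FPKM at day 0, 2.58, 2.72 and 4.43 FPKM at day 21, 5.10, 13.0 and 6.44 FPKM at day 45, 19.8 FPKM at day 100 and 19.7 FPKM at day 200. Each later group lay wholly above the one before it, and the late mice were nearly equal. Ltb rose by 2.64 ± 0.48 at day 45 (adjusted p = 0.00155) and 4.02 ± 0.53 in the late mice (adjusted p = 0.000178). The late mice were also higher than day 21 by 2.61 ± 0.53 (adjusted p = 0.00754), a call lost without the day 100 mouse (adjusted p = 0.0743). Set against the summed CD3 chains, Ltb was 0.655, 0.726 and 0.556 at day 0, lower at 0.274, 0.330 and 0.284 at day 21, and 2.39 and 1.38 at days 100 and 200.

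The Ltb promoter is shown because it is the member promoter that holds the NF-kB letters, with the NF-kB and E-box letters in capitals.

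Ltb (chr17:35194257-35194556, plus strand): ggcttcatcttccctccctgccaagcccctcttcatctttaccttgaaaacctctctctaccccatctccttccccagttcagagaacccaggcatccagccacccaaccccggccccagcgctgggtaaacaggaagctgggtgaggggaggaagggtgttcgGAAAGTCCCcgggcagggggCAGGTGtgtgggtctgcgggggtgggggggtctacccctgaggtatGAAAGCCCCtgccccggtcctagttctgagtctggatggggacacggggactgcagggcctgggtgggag

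The NF-kB letters lay on the opposite strand, 86 and 20 bases before the start, and were in 4.36% of all promoters and in no other member promoter found. The other genes of the lymphotoxin pathway were read from a list of 10. At day 21, 1 of the 10 was called higher, Tnfrsf1a, a receptor of lymphotoxin alpha and tumour necrosis factor, at 0.68. At day 45 there were 6, in the late mice 6 and in the knockouts 7, and none was called lower. Of all genes, 8.47%, 29.4%, 34.6% and 22.3% were called higher in these comparisons, so the count at day 21 was near that of all genes. Relb, the NF-kB subunit of the non-canonical pathway, was 1.64, 0.646 and 1.12 FPKM at day 0, 2.70, 3.30 and 5.15 FPKM at day 21, 4.70, 9.90 and 6.64 FPKM at day 45, and 14.1 and 10.1 FPKM at days 100 and 200. It rose by 2.56 at day 45 (adjusted p = 0.00235) and 3.37 in the late mice (adjusted p = 0.000627), and at day 21 the difference was 1.66 (adjusted p = 0.0563). Nfkb2, its partner, rose by 1.70 at day 45 and 2.57 in the late mice, and Map3k14, the kinase that starts the pathway, by 1.45 and 2.46. Map3k14 was also called higher in the late mice than at day 21 (1.99, adjusted p = 0.00281). Ltbr, the receptor, differed by 0.27 at day 21 (adjusted p = 0.465) and rose by 0.63 at day 45. Lta, which joins lymphotoxin beta in the membrane ligand, was at most 0.258 FPKM in any liver.

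**Figure D3:**
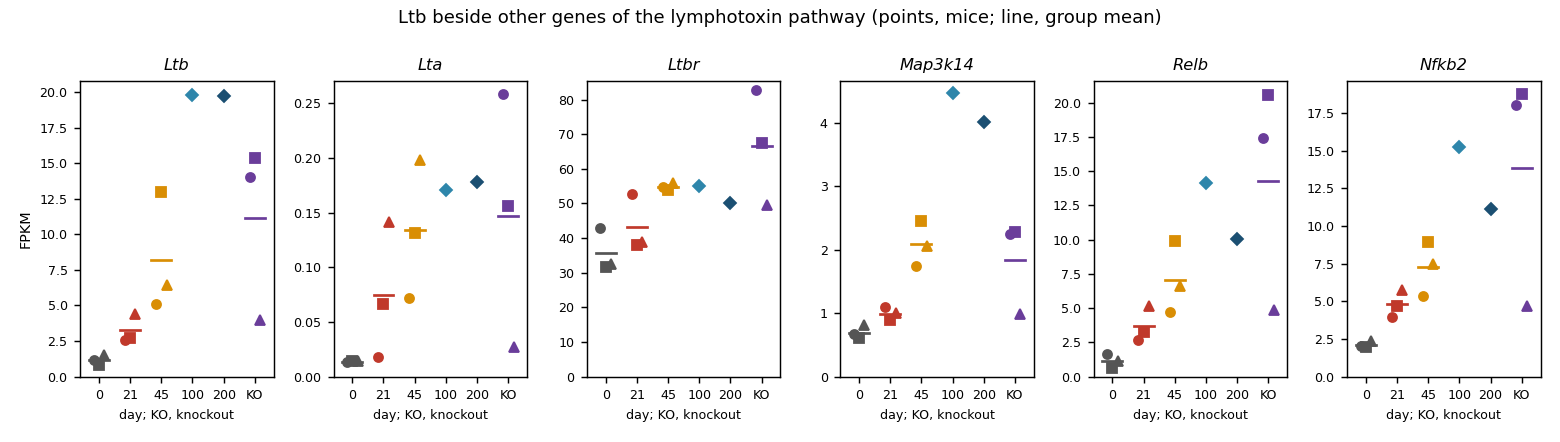
FPKM of Ltb, Lta, Ltbr, Map3k14, Relb and Nfkb2 in each liver, by day after injection and in the knockouts (KO), with axes from 0 and lines at group means. Ltb, Map3k14, Relb and Nfkb2 are highest in the late mice or the knockouts, and knockout mouse C lies below the other knockouts in each panel.

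Day 21 held the highest group mean among the floxed groups for 8 of the 10 genes, all but Cd3d and Ltb. This count rested on day 21 mouse C, without which it was 4 (Cd8a, Nkg7, Gzma and Gzmb). It was 6 without the day 100 mouse, 9 without the day 200 mouse and 8 without any other floxed mouse. Between day 45 and day 21, 9 of the 10 differences were negative, from -0.37 (Cd3d) to -1.12 (Gzma), and Ltb was positive at 1.23 ± 0.48 (adjusted p = 0.195). None was called in either direction by limma, and 3 had an unadjusted p below 0.05. With mouse letters as a replicate block over these days alone, none was called either (adjusted p from 0.0794 for Gzma to 0.363 for Cd4). Among all genes, 1.03% were called higher and 0% lower in this comparison, with a median difference of 0.21. The day 45 mice lay wholly below those of day 21 for 3 members, Cd3g, Gzma and Gzmb, where 2.5% of all genes did so. The test thus separated day 21 from day 0 but not from day 45.

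At day 45, 8 of the 10 genes were called higher than at day 0, where 29.4% of all genes were, and Cd4 (1.17, adjusted p = 0.0733) and Gzmb were not called. Cd4 was called there without day 0 mouse B (adjusted p = 0.0204), and Gzmb without day 0 mouse C (adjusted p = 0.0247). All day 45 mice lay above all day 0 mice for 8 members, as for 44.8% of all genes. In the late mice 8 of the 10 were called higher, against 34.6% of all genes, and Gzma and Gzmb were not called. Between the late mice and day 21, Ltb was called higher and Gzma lower, where 15.8% of all genes were called higher and 0.581% lower. The 8 others were not called, and their differences ran from -1.16 ± 0.42 for Gzmb (adjusted p = 0.0776) to 0.19 ± 0.42 for Cd3d. Gzmb was called lower with a pseudocount of 1 (adjusted p = 0.036) and with median centring (adjusted p = 0.042). The summed CD3 chains were 8.29 FPKM at day 100 and 14.25 FPKM at day 200, next to 8.25 to 15.6 FPKM at day 21 and 5.92 to 8.22 FPKM at day 45. The comparisons with day 0 share the same 3 control mice, and those with day 21 share the same 3 mice of that day.

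**Figure D4:**
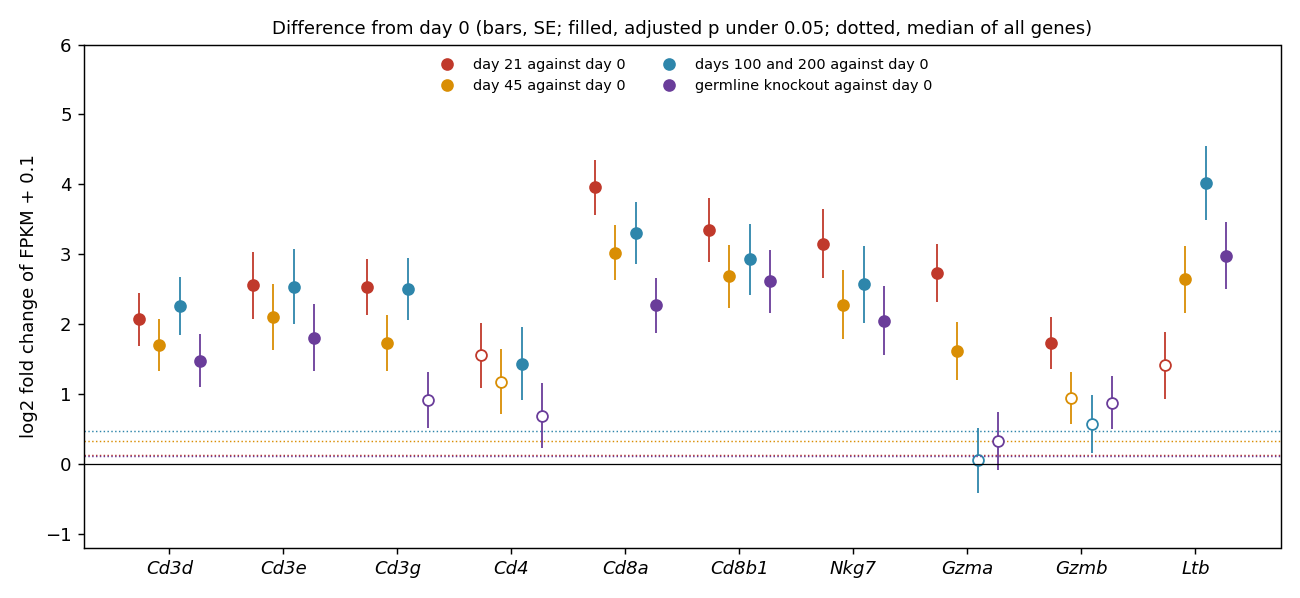
Log2 fold change of FPKM + 0.1 against day 0 for each gene (y axis), with SE bars, for day 21, day 45, the late mice and the knockouts; filled points have an adjusted p below 0.05, open points do not, and dotted lines are the medians of all genes. Day 21 is the highest point for all genes but Cd3d and Ltb, though for Cd3e, Cd3g and Cd4 the late mice lie close below it (2.53, 2.50 and 1.43 against 2.55, 2.53 and 1.55). Gzma lies at 0.05 in the late mice and Ltb at 4.02.

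In the germline knockouts, which received no vector, 6 of the 10 genes were called higher than in day 0 mice, where 22.3% of all genes were. These were Ltb (2.98 ± 0.48), Cd8b1 (2.61 ± 0.45), Cd8a (2.27 ± 0.39), Nkg7 (2.05 ± 0.49), Cd3e (1.80 ± 0.48) and Cd3d (1.48 ± 0.38). Cd8a was 1.39, 0.728 and 0.563 FPKM in knockout mice A, B and C, and Cd8b1 was 2.94, 1.58 and 1.02 FPKM. Both lay above all day 0 mice. Gzma was 3.02, 1.62 and 1.21 FPKM and overlapped with day 0 (0.33 ± 0.41, adjusted p = 0.546). Ltb was 14.0, 15.3 and 3.99 FPKM, and all 3 knockouts were above day 0. Mouse C was the lowest knockout for 9 of the 10 genes, Cd3e for example at 0.379 FPKM against 1.99 and 1.61 FPKM in mice A and B. Without mouse C, 7 genes were called, with Cd3g added (1.22, adjusted p = 0.0221), and the share of all genes called higher was 33.7%. The differences were then 3.60 for Ltb, 2.95 for Cd8b1, 2.52 for Cd8a, 2.55 for Nkg7, 2.46 for Cd3e and 1.73 for Cd3d. Those of Cd4, Gzmb and Gzma, not called, were 0.97, 0.87 and 0.60. The largest move was that of Cd3e, from 1.80. Of the other gene lists, 19 T cell receptor genes, 4 transcription factors and 9 lymphotoxin pathway genes were called higher without mouse C, against 16, 3 and 7 with it, and the counts for NK receptors, granule genes and chemokines were the same. The Cd3e call was lost without mouse A (adjusted p = 0.0625) or mouse B (adjusted p = 0.0655), and the Cd3d call without day 0 mouse B (adjusted p = 0.0508). Gzmb was called without day 0 mouse C (adjusted p = 0.0342). With the knockout and day 0 mice fitted alone, 3 genes were called, and Cd3d, Cd3e and Nkg7 were not.

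Other T cell genes were read from a list of 33 genes of T cell receptor signalling, of which 28 were in the table and 27 were tested. At day 21, 18 of the 27 were called higher and none lower, with a median difference of 1.57. At day 45 there were 21, in the late mice 23 and in the knockouts 16. The median difference was 1.575 at day 45 and 2.07 in the late mice. Between the late mice and day 21 none of the 27 was called, where 15.8% of all genes were called higher. Of these differences 17 were positive, with a median of 0.46 against 0.36 for all genes. For this list and those that follow, the shares of all genes called higher were 8.47% at day 21, 29.4% at day 45, 34.6% late and 22.3% in the knockouts. Pdcd1, for the inhibitory receptor PD-1 of activated T cells, had the largest difference of those named. It was 0.027, 0.009 and 0.009 FPKM at day 0, 1.865, 0.781 and 4.17 FPKM at day 21, 0.582, 1.19 and 1.10 FPKM at day 45, and 0.855 and 1.53 FPKM at days 100 and 200. It was near 0 in every day 0 mouse and at 0.582 FPKM or more in every mouse of days 21 and 45, and rose by 4.09 at day 21 (adjusted p = 0.00330). Sh2d2a and Sh2d1a, adaptors of T cell signalling, rose by 2.38 and 2.30. Cd247, the zeta chain of the receptor, rose by 2.25, Il2rb, a chain of the interleukin-2 receptor, by 2.10, and Lck, the kinase that acts first in the receptor's signal, by 2.07. Cd5, Cd6, Grap2 and Themis rose by 1.64 to 1.74, and Lcp2 by 1.61. In the late mice Cd247, Lck, Cd5, Cd6, Grap2 and Themis rose by more than at day 21, from 2.22 (Themis) to 2.64 (Cd6). Pdcd1, Sh2d2a, Sh2d1a, Il2rb and Lcp2 rose by less there, by 3.44, 1.99, 2.19, 1.94 and 1.45. Zap70, the kinase after Lck, was already 3.07 to 10.7 FPKM at day 0 and differed by 0.08 at day 21 (adjusted p = 0.965). Of a shorter set of 12 defining T cell genes, 7 were in the table, and 3 of those are the CD3 chains given above. The 4 others, which the longer list also holds, were Cd247, Lck, Cd5 and Cd2, an adhesion receptor, and all were called at day 45 and in the late mice. At day 21 Cd2 was not called (1.42, adjusted p = 0.0725).

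The genes whose pattern over the 14 libraries was most like the mean of the CD3 chains, by Pearson's r of log2(FPKM + 0.1) and outside the members, were Cd247 (r = 0.968), Il2rb (0.962), Ptpn22 (0.961), Spn (0.961) and Pdcd1 (0.960). Among the members, Nkg7 (0.971), Cd8a (0.962) and Cd8b1 (0.952) were as close, Cd4 followed at 0.772, and Ltb (0.691), Gzmb (0.677) and Gzma (0.581) were the least alike. The 14 libraries share a division into groups, so these values are descriptions. For Gzma, chosen for this after its values were seen, the closest were Gbp10 (0.907), Mpa2l (0.890), Atp8b5 (0.885), Igtp (0.857) and Ear2 (0.855). Gbp10, Mpa2l and Igtp belong to families of interferon-induced GTPases. Igtp was 58.2, 17.9 and 66.5 FPKM at day 0, 186, 113 and 274 FPKM at day 21, 67.7, 65.0 and 65.1 FPKM at day 45, and 50.2 and 43.0 FPKM at days 100 and 200. Its day 45 mice lay below all day 21 mice and beside those of day 0. For Ltb, chosen likewise, they were Twf2, Cx3cl1, Tgfb1i1 and Pik3ip1 (0.989 each) and Olfml3 (0.987).

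NK receptors had a median difference of 1.34 at day 21, 1.07 at day 45 and 1.28 in the late mice. The listed genes summed to 2.10 to 5.88 FPKM at day 0, 11.3 to 15.3 at day 21, 10.0 to 12.3 at day 45 and 15.5 to 19.5 late. Of 22 listed genes 16 were tested, and 11 were called higher at day 21, 7 at day 45, 10 in the late mice and 6 in the knockouts, with none called lower. Cd244, Klre1 and Klrd1 rose most at day 21, by 2.19, 2.03 and 1.97, followed by Xcl1, a chemokine of NK and CD8 T cells (1.83), Klrc1 (1.80), Klrk1 (1.40), Klrg1 (1.37), Cd226 (1.34), Il18rap (1.33) and Cd160 (1.24). In the late mice Cd244, Klrd1 and Xcl1 rose by 2.68, 2.72 and 2.68, and Klrg1, Cd226, Il18rap and Cd160 by 1.38 to 1.60, each by more than at day 21. Klrc1 and Klrk1 rose by less there, 1.49 and 1.19, and Klre1 was not called (1.12, adjusted p = 0.0846). Many of these receptors are also found on activated CD8 T cells. The receptors that best define NK cells were low in all groups. Ncr1, for the receptor NKp46, was 0.160 to 0.376 FPKM at day 0, 0.429 to 0.454 FPKM at day 21 and at most 1.24 FPKM in any liver, and differed by 0.72 (adjusted p = 0.3004). Klrb1c, for NK1.1, differed by 0.50 (adjusted p = 0.3095). Of 6 defining NK genes, 4 were called at day 21 (Eomes, Klrd1, Klre1 and Prf1), 3 at day 45, 3 in the late mice and 1 in the knockouts, where 22.3% of all genes were called higher.

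Of 12 genes of cytotoxic granules and effectors outside the members, 8 were called higher at day 21, 9 at day 45, 10 in the late mice and 7 in the knockouts. Gzmk, for granzyme K, was 0.027 FPKM or less at day 0, 0.914, 0.767 and 3.14 FPKM at day 21, 0.932, 0.448 and 1.21 FPKM at day 45, and 0.543 and 3.02 FPKM at days 100 and 200. It rose by 3.71 at day 21 (adjusted p = 0.00589) and by 3.71 in the late mice, where the difference of Gzma was 0.05. Ccl4 and Ccl5, chemokines released by T and NK cells, rose by 4.12 and 3.30 at day 21, Cst7 by 3.09, Prf1, for perforin, by 2.04, Ctsw by 1.71, Srgn, the proteoglycan of the granule, by 1.29 and Fasl by 1.24. Of 9 transcription factors tested from a list of 11, 4 were called higher at day 21, Ikzf3 (2.36), Runx3 (1.73), Eomes (1.60) and Tbx21 (1.23), named here after their values were seen. The same count of 4 was found at day 45, with 5 in the late mice and 3 in the knockouts. Zbtb16 and Tcf7, among the more abundant factors of the list, differed by 0.12 and 0.06 at day 21 and were not called.

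Chemokines and receptors that guide T cells were called higher for 7 of 10 genes at day 21, 8 at day 45, 8 in the late mice and 6 in the knockouts, where 2 were lower. Cxcl9, an interferon-induced chemokine that draws T cells through Cxcr3, was 6.43, 4.77 and 17.8 FPKM at day 0 and 38.0, 44.3 and 67.9 FPKM at day 21, and rose by 2.55 (adjusted p = 0.00329). It was 31.2, 25.4 and 31.1 FPKM at day 45 and 26.7 and 23.7 FPKM at days 100 and 200, below every day 21 mouse. Cxcl16, the ligand of Cxcr6, took the other course, from 5.56 to 8.54 FPKM at day 0 and 12.9 to 22.0 FPKM at day 21 to 39.6 to 47.9 FPKM late, and was called higher in the late mice than at day 21 (1.49, adjusted p = 0.0291). S1pr1, the receptor by which lymphocytes leave tissue and which endothelium also expresses, differed by -0.43 at day 21 (adjusted p = 0.574) and fell by 1.37 in the knockouts.

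Lists of other leukocytes were also higher at day 21 than at day 0, except the mast cell and basophil list, but most did not fall by day 45. From day 21 to day 45 the differences of 11 of 11 macrophage and monocyte and 9 of 10 dendritic cell genes were positive. The same held for 8 of 9 pan-leukocyte, 7 of 9 B cell and 3 of 7 neutrophil genes, and for 1 of the 10 members. None of these was called. Of the pan-leukocyte genes 8 of 9 were called higher at day 21, and their summed level was 47.1 to 92.9 FPKM at day 0, 169 to 313 at day 21, 223.3 to 285 at day 45, 324 to 378 late and 112 to 318 in the knockouts. The summed CD3 chains per Ptprc, the CD45 gene carried by all leukocytes, were 0.728, 0.549 and 0.708 at day 0, 1.09, 0.867 and 1.29 at day 21, and 0.680, 0.512 and 0.859 at day 45. It was 0.606 and 1.18 at days 100 and 200, and 3.70, 2.11 and 0.598 in the knockouts. The day 21 mice were all above the day 0 mice in this ratio, the day 45 mice were not, and knockout mice A and B were above every other library. B cell genes were called for 6 of 9 at day 21 and summed to 2.56 to 5.87 FPKM at day 0 and 23.2 to 128 at day 21, most of it Igj, the joining chain of secreted antibodies, at 17.7, 13.65 and 112 FPKM. Dendritic cell genes were called for 7 of 10 (3.32 to 5.46 FPKM summed at day 0, 10.1 to 13.8 at day 21, 26.3 to 28.3 late), macrophage and monocyte genes for 5 of 11 (257 to 461, 617 to 776 and 931 to 1116 FPKM) and neutrophil genes for 5 of 7 (4.90 to 20.4, 45.0 to 143 and 111 to 198 FPKM). Their sums at day 45, in the same order, were 11.2 to 17.9, 891 to 987 and 46.0 to 87.9 FPKM. Of the lists from pan-leukocyte to neutrophil genes, no gene in the table was at 0 in all mice of a group. Of 5 mast cell and basophil genes only Kit passed the filter, and it was not called at day 21 (0.76, adjusted p = 0.205). Of 9 hepatocyte genes tested none was called at day 21, with a median difference of 0.12. Ttr, Apoa1 and Fabp1, made by hepatocytes, differed there by 0.12, -0.72 and -0.13. The part of these other cells in the changes of the members was not tested.

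Small RNA libraries of the floxed livers held more time points, and 11 microRNAs known from leukocytes were read in them. Levels are RPM, read counts scaled to a fixed total of microRNA reads other than miR-122, since miR-122 itself fell. The table names hairpins and does not say which arm was counted, so the mature strands below are those that usually predominate. The sequences are from RefSeq (GRCm38.p6), with the seed (bases 2 to 8) in capitals, and show which of these microRNAs share a seed. miR-155, miR-342 and miR-223 each have a seed of their own, and miR-146a and miR-146b share a seed, as do miR-181a and miR-181b.

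miR-155-5p: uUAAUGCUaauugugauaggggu
miR-342-3p: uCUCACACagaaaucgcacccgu
miR-223-3p: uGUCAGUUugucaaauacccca
miR-146a-5p: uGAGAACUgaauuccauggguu
miR-146b-5p: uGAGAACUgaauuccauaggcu
miR-181a-5p: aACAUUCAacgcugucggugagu
miR-181b-5p: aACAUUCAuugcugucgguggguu

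At day 7 none of the 11 was called by limma and none had an unadjusted p below 0.05, where 0.395% of 253 microRNAs were called higher. At day 14, 1 was called (1.19% of all), at day 21 3 (5.14% of all) and at day 45 4 (20.2% of all). None was called lower on any day. miR-155, which lymphocytes make on activation, was 64.8, 43.6 and 52.5 RPM at day 0, 56.1, 23.3 and 34.5 RPM at day 7, 406, 2031 and 204 RPM at day 14, 477, 249 and 483 RPM at day 21, and 277, 306 and 431 RPM at day 45. Through day 7 no mouse exceeded 72.2 RPM, and from day 10 on every mouse was above every day 0 mouse. It rose by 3.36 ± 0.68 at day 14 (adjusted p = 0.0115), 2.84 ± 0.68 at day 21 (adjusted p = 0.0162) and 2.62 ± 0.68 at day 45 (adjusted p = 0.00728). The day 14 call was lost without mouse B of that day (2.42, adjusted p = 0.133), and the day 21 call without day 21 mouse C (adjusted p = 0.109) or day 0 mouse C (adjusted p = 0.0508). The single mice measured 163 RPM on day 10, 1211 RPM on day 17, 388 RPM on day 25, 3488 RPM on day 36, then 862 RPM (day 100) and 418 RPM (day 200).

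miR-342, a microRNA of lymphocytes and myeloid cells, was 83.5, 114.9 and 100.8 RPM at day 0, 474, 1147 and 2563 RPM at day 21 and 1121, 357 and 340 RPM at day 45. All injected mice, from day 1 on, lay above the day 0 mice. It rose by 3.48 ± 0.65 at day 21 (adjusted p = 0.00420) and 2.37 ± 0.65 at day 45 (adjusted p = 0.0109), a day 45 call lost without mouse A of that day (1.81, adjusted p = 0.0700). At day 14 its adjusted p was 0.0665, and 0.0445 without day 0 mouse B. miR-223, of neutrophils and other myeloid cells, was 741, 4715 and 1987 RPM at day 21 against 598, 340 and 335 RPM at day 0 and rose by 2.22 ± 0.59 (adjusted p = 0.0269). That call was lost without day 21 mouse B (1.57, adjusted p = 0.192) or C (adjusted p = 0.109), or without day 0 mouse A (adjusted p = 0.0513) or C (adjusted p = 0.0897). miR-146b and miR-181b-2 rose by 2.23 and 2.18 at day 45. The miR-146b values rest on few reads, since its day 0 mean of 17.7 RPM was the lowest of the list. Day 45 mouse A, at 151 RPM, also had the fewest listed reads (80095). The miR-146b call was lost without day 0 mouse A (adjusted p = 0.153) or day 45 mouse A (adjusted p = 0.132) or B (adjusted p = 0.0513), and with a filter at a mean of 1 RPM (adjusted p = 0.0608). The miR-181b-2 call was lost without day 0 mouse A (adjusted p = 0.0838) or day 45 mouse C (adjusted p = 0.115). miR-150, the microRNA of resting lymphocytes, was 287, 170 and 158 RPM at day 0 and 299, 981 and 1047 RPM at day 21 (1.77 ± 0.59, adjusted p = 0.0844), and was called without day 21 mouse A (2.35, adjusted p = 0.0279). miR-142, found in all blood cells, was the most abundant of the list, at 1996 to 4331 RPM at day 0 and 2452 to 7712 RPM at day 21 (0.73 ± 0.54, adjusted p = 0.487). These counts rest on the denominator. Over all microRNA reads, miR-122 included, 9, 10 and 11 of the 11 were called at days 14, 21 and 45, and with each library centred on its median 0, 1 (miR-342) and 1 (miR-155) were. The shares of all microRNAs given above belong to the main scaling. Those under these other scalings are not given here, so these counts have no background to be read against.

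**Figure D5:**
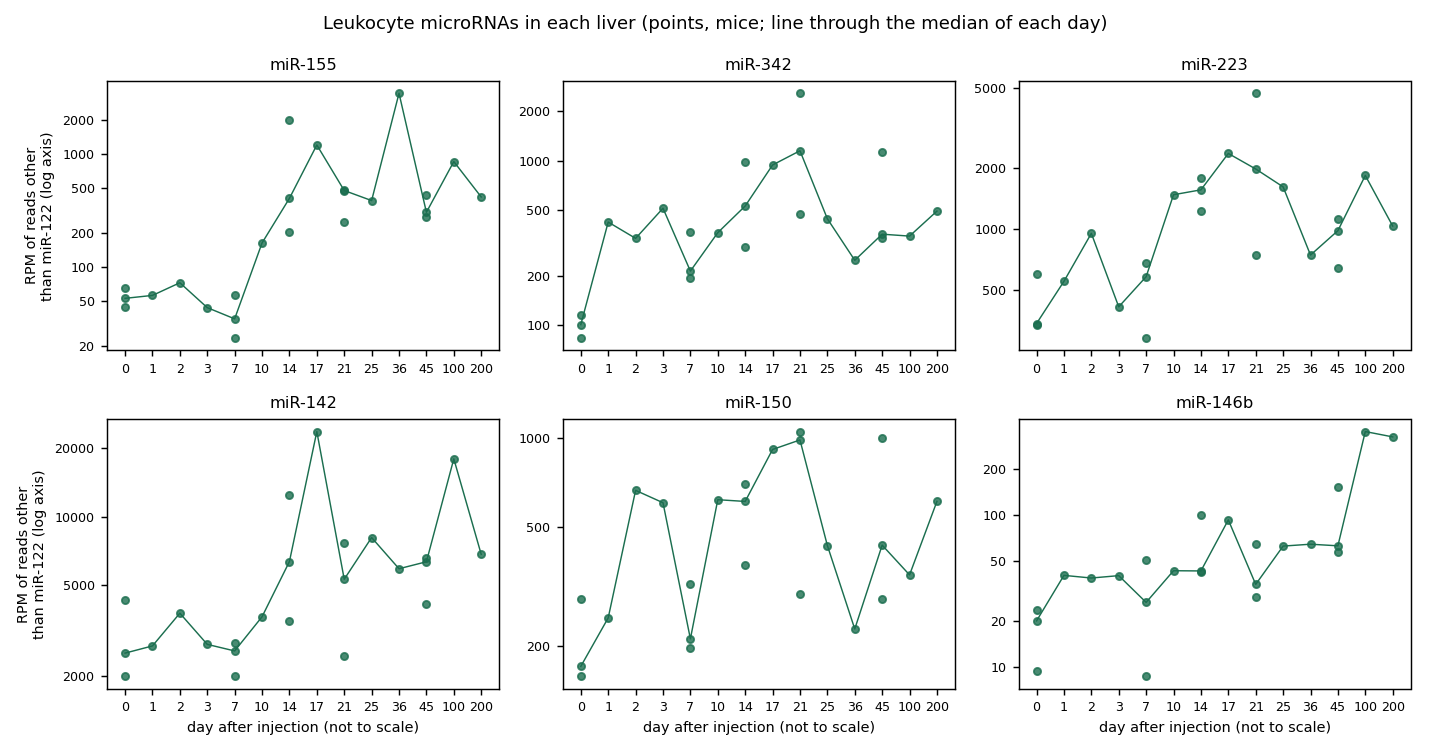
RPM of microRNA reads other than miR-122 (log axis) for 6 leukocyte microRNAs in each floxed liver, by day after injection (days not to scale), with a line through the median of each day. miR-155 lies between 23.3 and 72.2 RPM through day 7 and at 163 RPM or more from day 10, and the medians of miR-223 and miR-150 are highest at days 17 and 21.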

How the data were processed

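Livers of floxed and germline knockout mice were profiled by RNA-seq of polyadenylated RNA (14 libraries) and by small RNA sequencing (24 libraries of floxed livers used here, with 80095 to 866633 listed reads each). The authors aligned the RNA-seq reads to mm9 and computed FPKM with Cufflinks 2.2.1 (quartile normalization), and deposited them per gene. The small RNA reads were aligned with Bowtie 0.12.7, and the authors deposited them as RPM with 1 added, which was subtracted here. RPM was recomputed over reads other than miR-122. Rows with the same symbol were summed.

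Genes averaging 0.1 FPKM or more and microRNAs averaging 10 RPM or more were fitted on log2(FPKM + 0.1) and log2(RPM + 1) with limma 3.58.1 (R 4.3.3) over all groups, with p-values adjusted by the Benjamini-Hochberg method. Called means an adjusted p below 0.05. The fit was tested on simulated data. Depth was estimated from the steps of FPKM values. Each library came from a separate mouse. Letters A, B and C were not stated to mark a shared litter or day, and only between days 21 and 45 of RNA-seq, among the comparisons made, did all same-lettered mice deviate together.

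The members and all gene lists were chosen with earlier results of these data known. Named genes are all members, the 3 most abundant tested genes of each list, up to 10 called genes at day 21 of the T cell receptor, NK receptor and granule lists, and the 5 genes most like the mean of the CD3 chains. A gene that this rule names is not reported here. Genes named outside this rule were chosen after their values were seen. Alternatives were the pseudocount, the filter, the scaling, the samples fitted, a replicate block, and leaving out each mouse. Columns of embryonic and postnatal livers were not used.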

Additional observations from a re-analysis of the deposited data

How the results depend on the processing

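With each mouse left out in turn, the number of the 10 genes called ranged from 7 to 8 at day 21 and 8 to 9 at day 45 against day 0, was 0 throughout for day 45 against day 21, and ranged from 7 to 8 for the late mice against day 0, 1 to 2 for the late mice against day 21 and 5 to 7 for the knockouts. The number of genes with their highest floxed mean at day 21 ranged from 4 (without day 21 mouse C) to 9, an alternative added after the data were seen. The leukocyte microRNAs called ranged from 0 to 0 at day 7, 0 to 2 at day 14, 1 to 4 at day 21 and 2 to 4 at day 45. Without the day 100 mouse, 1 gene (Gzma) was called between late and day 21, as with day 200 alone. With the groups compared fitted alone, 3 genes were called in the knockouts. Over all microRNA reads, 9, 10 and 11 of the leukocyte microRNAs were called at days 14, 21 and 45, and with median centring 0, 1 and 1. The share of all microRNAs called under these scalings is not given here, so these counts have no background. Pseudocounts of 1 and 0.05 and the other filters moved no count of calls by more than 1.5 times. Median centring took away a shift of all genes of 0.12 at day 21, 0.33 at day 45 and 0.47 in the late mice, and 8, 8 and 7 genes were then called.

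Some small differences changed sign. For late against day 0, Gzma was -0.46 with median centring, -0.61 with day 200 alone and between -0.61 and 0.70 over the mice left out. For late against day 21, Cd3d was -0.20 with median centring and -0.18 with day 100 alone (-0.18 to 0.57 over the mice left out), Cd3e 0.025 and Cd3g 0.024 with equal sums of FPKM and 0.39 and 0.35 with day 200 alone (-0.43 to 0.39 and -0.40 to 0.35), Cd8b1 0.014 with day 200 alone (-0.86 to 0.026), and Cd4 -0.41 to 0.21. In the knockouts Gzma ranged from -0.027 to 0.61. None of these was called. Over all microRNA reads, miR-142 was 0.34 and miR-181a-1 0.40 at day 7, and miR-181a-1 and miR-181a-2 were 1.03 and 1.09 at day 14. With median centring miR-150 was -0.12, miR-181a-2 -0.36 and miR-223 -0.14 at day 7, and miR-146a -0.45 at day 21. Over the mice left out, miR-142 ranged from -0.44 to 0.12, miR-146a from -0.0059 to 1.14, miR-146b from -0.10 to 1.10, miR-181a-1 from -0.67 to 0.25 and miR-181a-2 from -0.67 to 0.48 at day 7, miR-181a-1 from -0.72 to 0.20 and miR-181a-2 from -0.83 to 0.33 at day 14, and miR-146a from -0.49 to 0.54 at day 21. The cause was not tested.

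Same-lettered mice of days 21 and 45 deviated together in RNA-seq (correlations of deviations 0.235, 0.208 and 0.468 for A, B and C), as did those of days 7 and 21 in small RNA (0.165, 0.101 and 0.199), which were not compared with each other. In no other pair of groups were all 3 above 0.1, with 7 of 18 pairs above it in RNA-seq (-0.385 to 0.468) and 15 of 30 in small RNA (-0.232 to 0.348). With the letter as a replicate block, 8, 9, 0 and 7 genes were called for day 21 and day 45 against day 0, day 45 against day 21 and the knockouts, and 0, 1, 3 and 4 microRNAs at days 7, 14, 21 and 45. The genes gained were Gzmb at day 45 (adjusted p = 0.0349) and in the knockouts (adjusted p = 0.0466). With a block over days 21 and 45 alone, added after the data were seen, 0 genes were called. The late mice carry no letters and had no block. The count models planned as alternatives were not run. A check of units did not accept the deposited values as whole reads, although an RPM per read and a read total were estimated for each small RNA library. Few fragments per gene at day 0 limit the precision of Cd8a, Cd8b1 and Cd3e there.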
